A study of Mus musculus with 12 samples.

Results

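The genes of 9 forebrain regional transcription factors were followed here: Otx1, Otx2, Emx1, Emx2, Lhx2, Nr2f1, Nr2f2, Nkx2-1 and Gsx2. They were chosen by symbol and are 9 of the 34102 genes of the count table. All were found, each under 1 gene identifier. The choice was made with results of these data in view, and it names the cultured cells as same-numbered pairs, so the differences between the cultured groups are given for these genes as a description, with intervals for the spread between libraries and no p. Which measured values led to the choice is not stated.

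RNA was sequenced from 12 mouse libraries in 4 groups of 3, all of strain C57BL/6. The cortex control group carried floxed Srsf10 without the Nestin-Cre transgene, and the cortex group called cKO (conditional knockout) carried floxed Srsf10 with it. The Nestin promoter drives Cre in neural progenitors, whose neurons and glia inherit the deletion, and no group carried it without floxed Srsf10, so deletion and transgene cannot be told apart. The other groups were primary neural progenitor cells (NPC) from cortex, grown in suspension with bFGF and EGF, with genotype WT or SRSF10 knockdown. RNA was taken 72 h after lentivirus infection at a multiplicity of 30, and neither the virus given to the WT cells nor the age of the animals is stated in the labels. Srsf10 encodes a splicing factor. Its own counts, 195 to 219 CPM in control cortex against 189.6 to 226 in the libraries called cKO, and 222 to 246 CPM in control NPC against 217 to 239 in knockdown, overlapped between the groups, so directions below rest on the labels. Within the same-numbered NPC pairs Srsf10 was lower in knockdown by a small amount, with a log2 ratio of -0.04 in each of the 3. CPM is the count scaled to the library total (counts-per-million). Libraries held 32560159 to 36713205 counts in cortex and 26074094 to 30608918 in NPC. The Y-linked gene Ddx3y stood at 0, 104 and 101 CPM in cortex control replicates 1 to 3. In the cKO replicates it stood at 0.0915, 0.0295 and 110 CPM, so the cortex groups were not balanced in sex. In NPC it stood at 84.3 and 90.9 CPM in replicate 3 of control and knockdown and at most 0.294 CPM in the other libraries. A gene with 3 counts stands at up to 0.115 CPM, which is taken as the floor of detection and covers counting error only. Nothing in the labels says that libraries came from separate animals or cultures, so intervals and p-values measure the spread between these libraries.

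The embryonic forebrain is divided into regions by transcription factors whose domains meet or overlap. Otx2 is needed for forebrain and midbrain and meets Gbx2 at the border with the hindbrain. Emx1, Emx2 and Lhx2 act in the dorsal telencephalon, which becomes cortex, while Gsx2 and Nkx2-1 specify progenitors of the ventral telencephalon, in the lateral and medial ganglionic eminences. Nr2f1 and Nr2f2, also called COUP-TFI and COUP-TFII, are nuclear receptors that pattern the cortex along its front to back axis. In later brain Otx2 is a defining gene of the choroid plexus, the tissue that makes cerebrospinal fluid.

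Promoter sequence from RefSeq (build GRCm38.p6) was found for 8 of the 9 genes, in 13 windows of 250 bases before an annotated start. The windows were searched on both strands for TAATCC, the site that Otx proteins bind, and for TAATTA, a core bound by many homeodomain proteins, of which Lhx2 and the Emx proteins are examples. The motifs differ in their last bases and were counted separately, and no counted site is both. TAATCC was in 2 of the 13 windows, 1 of Otx2 and the 1 of Nr2f2, and TAATTA in 2 windows, both of Otx2. Among all 32851 windows of that length, 6.25% held TAATCC and 4.84% held TAATTA. The 3 stretches below are shown because most of the results below turn on Otx2 and Nr2f2. Each is written on the strand of its gene, with the motif or its complement (GGATTA for TAATCC) in capitals. The first is a 30-base stretch at chr14:48665303-48665332 inside an Otx2 exon, the second the window at chr14:48667645-48667894 upstream of another Otx2 start, and the third the window at chr7:70366747-70366996 upstream of Nr2f2.
Otx2 site: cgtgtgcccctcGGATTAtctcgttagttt
Otx2 window: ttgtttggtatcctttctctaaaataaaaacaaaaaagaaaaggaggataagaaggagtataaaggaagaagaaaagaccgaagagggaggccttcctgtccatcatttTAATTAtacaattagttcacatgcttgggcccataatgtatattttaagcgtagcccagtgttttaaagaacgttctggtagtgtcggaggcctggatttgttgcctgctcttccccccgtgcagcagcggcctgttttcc
Nr2f2 window: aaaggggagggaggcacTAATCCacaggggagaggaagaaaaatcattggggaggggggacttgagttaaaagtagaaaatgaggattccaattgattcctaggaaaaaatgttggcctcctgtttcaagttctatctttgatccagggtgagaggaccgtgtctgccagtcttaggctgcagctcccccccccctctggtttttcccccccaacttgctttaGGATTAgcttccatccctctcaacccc
The Nr2f2 window lies within an exon of B130024G19Rik, a noncoding gene on the opposite strand. These letters describe the windows, and no binding was measured here.

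The cortex libraries carried the dorsal factors at high levels and the NPC libraries carried them in part. Per kilobase of exonic length, which allows genes to be compared, control cortex stood highest for Nr2f1 (31.7 ± 2.93 CPM per kb, SD, n = 3) and Lhx2 (30.9 ± 4.66), whose ranges overlapped. Emx1 followed at 11.1 ± 0.910 CPM per kb, then Emx2 at 6.58 ± 2.56 and Nr2f2 at 4.49 ± 0.605, which overlapped each other, and Otx1 at 2.54 ± 0.327. Gsx2, Nkx2-1 and Otx2 had means of 0.563 to 0.620 CPM per kb and overlapped. In control NPC the order was Nr2f1 (12.7 ± 1.63 CPM per kb, n = 3), Emx2 (10.9 ± 3.07), Lhx2 (5.76 ± 1.99), Otx2 (3.42 ± 1.76) and Otx1 (3.01 ± 0.428), and each of these overlapped the next. Nr2f2 stood lower, at 0.968 ± 0.472 CPM per kb, with Nkx2-1 at 0.249 ± 0.0515 and Gsx2 at 0.130 ± 0.0863 below it. Otx2 was thus among the 3 lowest in control cortex, where its mean rests on replicate 2 (1.57 CPM per kb, against 0.0454 and 0.0710 in the others), and the fourth in control NPC. No test was run between the systems, because no label says whether both were prepared and counted alike.

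Emx1, a homeodomain factor restricted to dorsal telencephalon, had 0 counts in all 6 NPC libraries, against 690 to 950 counts in each cortex library. The tissue of the NPC libraries is labelled cortex, and this defining gene of the tissue was thus not detected there, at a floor of up to 0.115 CPM. En2, a gene of midbrain and hindbrain, stood at 29.4 to 64.0 CPM in NPC and at most 0.0295 CPM in cortex. The progenitor gene Nes, at 1882 to 2466 CPM in NPC, was present as the label says.

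**Figure D1:**
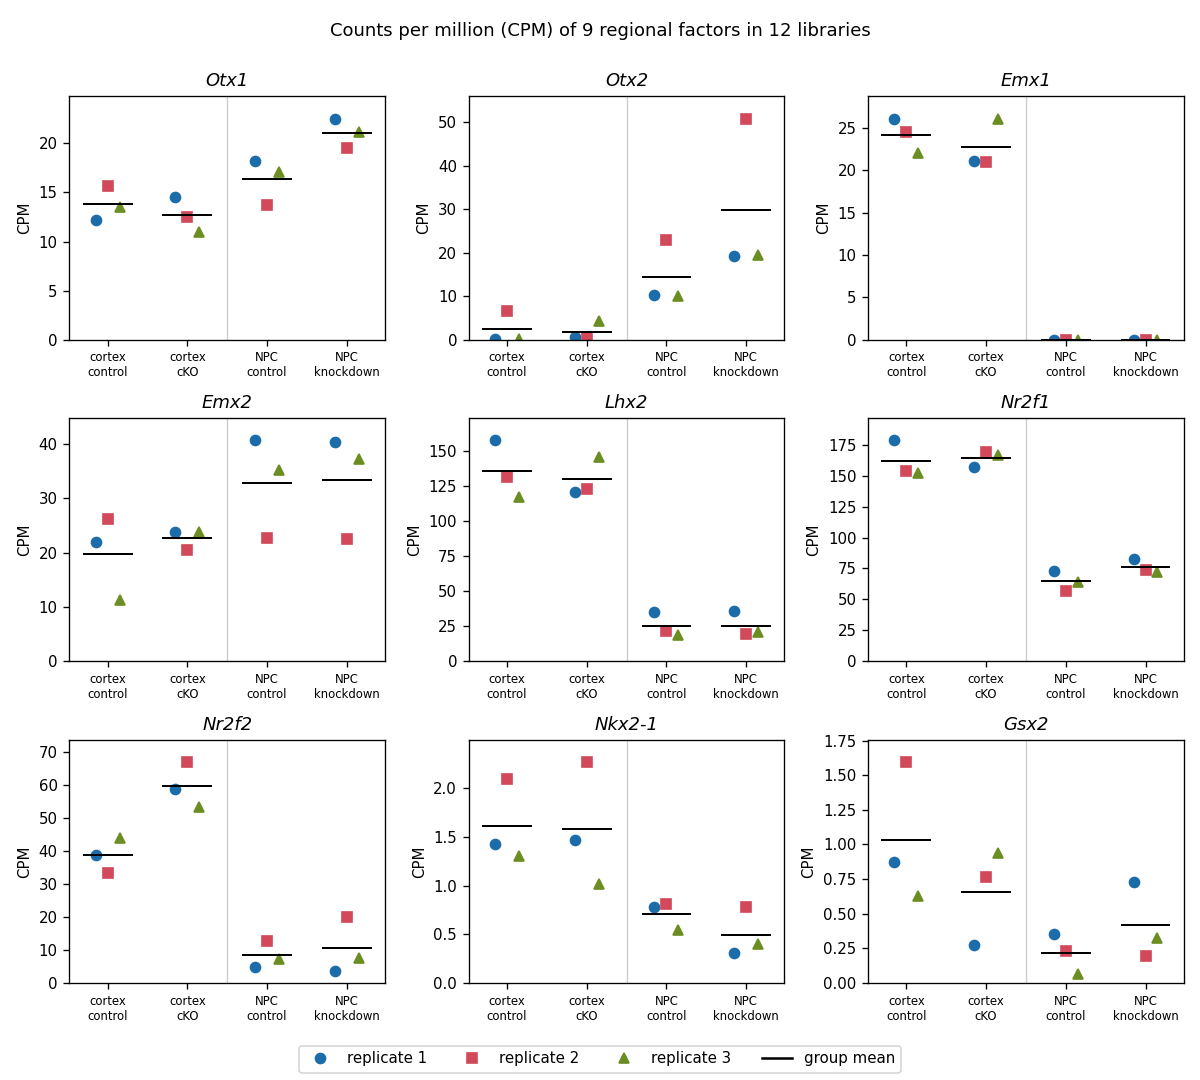
CPM of each of the 9 factors (vertical axis, a separate scale for each gene) in the 3 libraries of the 4 groups (horizontal axis). Symbols mark replicate numbers and black bars are group means. Otx2 in cortex is high in control replicate 2 (6.63 CPM) and in cKO replicate 3 (4.27 CPM) only, and in NPC replicate 2 is the highest library of both groups.

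Otx2 (ENSMUSG00000021848, chr14:48657677-48673819, minus strand, mm10) was low and uneven in cortex. The control libraries held 0.192, 6.63 and 0.300 CPM (7, 216 and 11 counts), and those called cKO held 0.702, 0.619 and 4.27 CPM (23, 21 and 155 counts). One library of each group was thus far above the others, and the groups overlapped. The log2 fold change of cKO against control was -0.35 (SE 1.11, 95% interval -2.80 to 2.11), with an adjusted p of 0.936 in edgeR's quasi-likelihood test with Benjamini-Hochberg adjustment over all genes. The direction turned with the libraries used: the value was 2.89 without control replicate 2 and -1.85 without cKO replicate 3.

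The 2 cortex libraries highest in Otx2 were those rich in choroid plexus genes. Ttr, the main secreted protein of the choroid plexus, stood at 1194 CPM in control replicate 2 and 1082 CPM in cKO replicate 3, against a range of 2.35 to 100.3 CPM among the remaining 4. Of 16 listed choroid plexus genes, 14 were higher in both of these libraries than in each of the other 4, while Kl was at 0 in both. The 14 include Ttr, whose level above 1000 CPM picked these libraries, and the share of all genes was not counted. Both libraries also carried Ddx3y, as did control replicate 3. The summed level of the list was 45.0, 1358 and 75.9 CPM in control replicates 1 to 3 and 159, 76.6 and 1246 CPM in those called cKO. Without Ttr the sums were 42.7, 164 and 56.7 CPM in controls and 59.1, 59.7 and 164 CPM in cKO. Over the 4 libraries poor in Ttr, the log2 fold change of Otx2 was 1.39 (SE 0.648, adjusted p = 0.341, edgeR quasi-likelihood test), with 0.192 and 0.300 CPM in controls against 0.702 and 0.619 CPM in cKO. In bulk tissue, fewer cells of a type and less RNA per cell cannot be told apart. None of the other 8 factors was higher in both Ttr-rich libraries than in each of the other 4, except Gsx2 (1.60 and 0.936 CPM against 0.275 to 0.876 CPM).

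**Figure D2:**
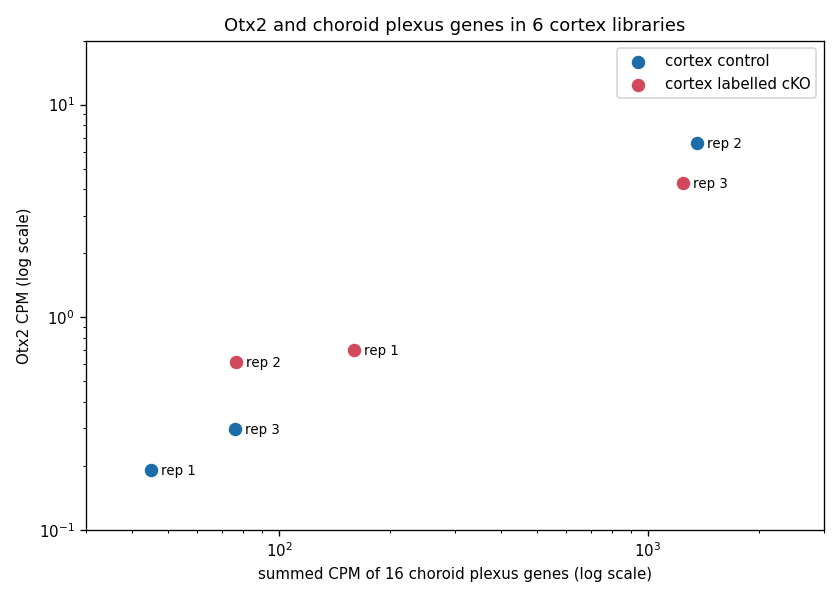
Otx2 (vertical axis, CPM, log scale) against the summed CPM of 16 choroid plexus genes (horizontal axis, log scale) in the 6 cortex libraries, one point each, coloured by group. The 2 libraries with sums of 1246 and 1358 CPM are those with Otx2 at 4.27 and 6.63 CPM.

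The genes whose pattern over the 6 cortex libraries lay nearest to Otx2 were Wfikkn2, Folr1, Slc4a5, Cldn2 and Clic6. Their root-mean-square difference from Otx2 in centred log2 (CPM + 0.1) ran from 0.225 (Wfikkn2) to 0.514 (Clic6), against a spread of Otx2 itself of 1.69. Wfikkn2 stood at 15.1 CPM in control replicate 2 and 14.4 CPM in cKO replicate 3, and at 0.712 to 2.51 CPM in the other 4. Folr1, Slc4a5, Cldn2 and Clic6 are in the choroid plexus list used here. The points are libraries of both groups, and the likeness is a description.

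In NPC, Otx2 was higher in the labelled knockdown than in its same-numbered control in each of the 3 pairs. The controls held 10.2, 23.0 and 10.1 CPM (289, 600 and 298 counts), and the knockdown libraries held 19.3, 50.8 and 19.6 CPM (504, 1556 and 539 counts). The groups overlapped, because control replicate 2 lay above knockdown replicates 1 and 3. Within pairs the knockdown level was 1.89, 2.21 and 1.95 times that of the control. Without the pairing the log2 difference was 1.05 (SE 0.468, 95% interval -0.05 to 2.15), and it was 1.01 (SE 0.0818, 95% interval 0.84 to 1.19) with the replicate number as a block. Without the pairing it ran from 0.43 without knockdown replicate 2 to 1.55 without control replicate 2. Leaving out 1 pair in the blocked fit gave 1.07 without pair 1, 0.93 without pair 2 and 1.04 without pair 3.

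Of the 16 choroid plexus genes, 13 or 14 stood under 1 CPM in each NPC library, with Ttr at most 0.877 CPM and Folr1 at most 0.294 CPM. Enpp2, which encodes autotaxin, at 14.7 to 42.6 CPM, and the carbonic anhydrase gene Car12, at 3.51 to 9.15 CPM, were the higher ones. The summed level of the list was 31.2, 26.2 and 21.3 CPM in controls and 51.7, 30.7 and 27.1 CPM in knockdown. It was thus higher in each of the 3 pairs, as were 28.4% of all single genes. Within pairs Enpp2 was 1.81, 0.983 and 1.12 times its control and Car12 1.30, 2.32 and 1.98 times. In pair 2, where Otx2 had its largest ratio, Enpp2 did not rise and Car12 had its largest ratio. Of the 6 tested, 5 had a log2 fold change above 0 and 1, Car12, rose (0.85, adjusted p = 0.00217, edgeR with the replicate block), beside rises in 11.9% of all genes. In 4 lists of other cell types the summed levels did not overlap between the NPC groups, beside 23.5% of all single genes in either direction. The sums overlapped for the interneuron, striatal, olfactory bulb and septum, radial glia, meningeal, microglia and neuron lists. Sums without overlap were lower in knockdown for 9 Cajal-Retzius genes (44.5 to 54.6 against 27.5 to 37.9 CPM), 8 thalamic genes (107 to 127 against 85.6 to 89.1 CPM) and 9 vessel and blood genes (16.3 to 20.98 against 9.89 to 12.0 CPM). They were higher for 9 genes of the oligodendrocyte lineage (2835 to 2895 against 2978 to 3042 CPM). Of the vessel and blood genes 6 or 7, of the Cajal-Retzius genes 4 to 6 and of the thalamic genes 5 stood under 1 CPM in each NPC library. Flt1, at 5.33 to 16.8 CPM, was 0.439, 0.463 and 0.464 times its control within pairs. EdgeR with the block called 1 of 4 tested vessel genes lower, and 2 had a log2 fold change above 0. It called 1 gene higher and 2 lower among 6 tested Cajal-Retzius genes, and likewise among 9 oligodendrocyte genes. Of 3 thalamic genes it called 2 lower, beside falls in 12.8% of all genes. The part of the genes of these lists in the Otx2 values was not tested. The 5 genes nearest to Otx2 over the 6 NPC libraries were Gxylt2, Pygm, Aldh1a1, Svep1 and Lhfpl1, at root-mean-square differences of 0.157 to 0.237 against a spread of Otx2 of 0.785. Gxylt2 stood at 1.35, 3.30 and 1.32 CPM in controls and 1.96, 6.86 and 2.36 CPM in knockdown. None of these is among the 5 nearest genes in cortex.

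Otx1 (ENSMUSG00000005917, chr11:21994764-22002897, minus strand), the second Otx gene, is made in cortical progenitors and later in deep cortical layers. Its cortex groups overlapped, at 12.2, 15.7 and 13.5 CPM in controls and 14.6, 12.5 and 11.0 CPM in cKO (log2 fold change -0.14, SE 0.147, edgeR adjusted p = 0.773). In NPC it held 18.2, 13.7 and 17.0 CPM in controls and 22.5, 19.5 and 21.1 CPM in knockdown, and these groups did not overlap. The ratios within pairs were 1.24, 1.42 and 1.24, and the log2 fold change was 0.36 (95% interval 0.06 to 0.66) without and 0.36 (0.18 to 0.55) with the block. The Otx1 difference was thus smaller than that of Otx2 in each pair.

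Among the dorsal factors no difference in cortex passed the test. Emx1 (ENSMUSG00000033726, chr6:85187438-85204462, plus strand) held 26.0, 24.5 and 22.1 CPM in controls and 21.1, 20.9 and 26.1 CPM in cKO (log2 fold change -0.11, SE 0.119, edgeR adjusted p = 0.772). Emx2 (ENSMUSG00000043969, chr19:59458372-59465357, plus strand), which is graded across the cortex from front to back, held 21.9, 26.2 and 11.2 CPM in controls and 23.9, 20.4 and 23.7 CPM in cKO. Control replicate 3 was the low library, and the log2 fold change of 0.18 (SE 0.243, edgeR adjusted p = 0.838) became -0.11 without it. Lhx2 (ENSMUSG00000000247, chr2:38339281-38369733, plus strand), a selector of cortical fate, held 158, 132 and 118 CPM in controls and 121, 123 and 146 CPM in cKO (log2 fold change -0.09, SE 0.111, edgeR adjusted p = 0.823).

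In NPC, Emx2 and Lhx2 followed the replicate number and differed little within pairs. Emx2 held 40.6, 22.7 and 35.3 CPM in controls and 40.4, 22.5 and 37.2 CPM in knockdown, so replicate 2 was low in both groups. Its log2 fold change with the block was 0.01 (95% interval -0.12 to 0.15). Lhx2 held 35.2, 21.9 and 18.8 CPM in controls and 35.7, 19.6 and 20.7 CPM in knockdown, with replicate 1 high in both groups, and its blocked value was -0.01 (95% interval -0.17 to 0.16). Without the block these intervals were wider, -0.63 to 0.65 for Emx2 and -0.72 to 0.70 for Lhx2.

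Nr2f2 (ENSMUSG00000030551, chr7:70351944-70366735, minus strand) was the factor with the clearest separation in cortex. Controls held 38.9, 33.5 and 43.9 CPM and the libraries called cKO held 58.8, 67.2 and 53.6 CPM, so each cKO library lay above each control. It was the 1 of 9 factors whose groups did not overlap, beside 17.6% of all genes tested in either direction and 10.5% in the higher direction. The cKO cortex was higher by 0.60 on the log2 scale (SE 0.119, 95% interval 0.34 to 0.87), and the edgeR adjusted p of 0.0889 did not pass 0.05. DESeq2 gave an adjusted p of 0.000268 and edgeR without the count filter 0.00827. The other alternatives, sex as a covariate among them, ran up to 0.696 with fold changes of 0.51 to 0.69.

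Genes of other cell types were read beside Nr2f2, which besides patterning cortex is made in veins and in interneurons of the caudal ganglionic eminence. The 9 listed vessel and blood genes summed to 204 to 321 CPM in controls and 251 to 311 in cKO, which overlap. The 11 meningeal fibroblast genes, none at 0 in any cortex library, summed to 54.4 to 304 CPM in controls and 216 to 334 in cKO, and 11 of 11 had a log2 fold change above 0, though these sums overlap too. So did those of the choroid plexus, striatal, Cajal-Retzius, thalamic, radial glia, microglia and neuron lists. In 3 lists the sums did not overlap, beside 17.6% of all single genes in either direction. Sums without overlap were lower in cKO for 12 interneuron genes (731 to 788 against 617 to 663 CPM) and 9 genes of the oligodendrocyte lineage (317 to 335 against 279 to 285 CPM). They were higher for 9 genes of olfactory bulb and septum (76.6 to 78.7 against 92.9 to 102 CPM). Of the vessel, meningeal, interneuron, oligodendrocyte and olfactory bulb and septum lists, edgeR called 1 gene, beside 0.171% of all genes. This was Gpr17 of the oligodendrocyte lineage, which fell by 0.79 on the log2 scale (edgeR adjusted p = 0.0213). At an unadjusted p under 0.05 there were 6 of 12 interneuron, 3 of 9 oligodendrocyte, 2 of 7 olfactory bulb and septum, 1 of 9 vessel and 0 of 11 meningeal genes, beside 10.9% of all genes. DESeq2 called 5 interneuron genes and 1 oligodendrocyte gene lower and 1 olfactory bulb and septum gene higher, beside 2.14% of all genes. Their part in the Nr2f2 values was not tested. The nearest patterns to Nr2f2 in cortex were Pdgfb, Zic2 and Acad11 (root-mean-square differences of 0.0760 to 0.0904 against its own spread of 0.347). Zic2, a factor of the dorsal midline, held 16.0, 14.5 and 16.0 CPM in controls and 24.2, 26.2 and 21.6 CPM in cKO.

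Nr2f1 (ENSMUSG00000069171, chr13:78188973-78199757, minus strand) did not separate the cortex groups, at 179, 154 and 152 CPM in controls and 157, 169 and 166 CPM in cKO. Its log2 fold change was -0.00032 (SE 0.0768, 95% interval -0.17 to 0.17, edgeR adjusted p = 0.999), the narrowest interval of the 9. In NPC it held 73.0, 56.5 and 64.0 CPM in controls and 83.0, 73.4 and 71.8 CPM in knockdown, and it was 1.14, 1.30 and 1.12 times the control within pairs. The log2 fold change was 0.23 (95% interval -0.03 to 0.49) without the block and 0.23 (0.11 to 0.36) with it. Nr2f2 in NPC held 4.92, 12.8 and 7.29 CPM in controls and 3.76, 20.1 and 7.70 CPM in knockdown. Its ratio was below 1 in pair 1 (0.764) and above 1 in pairs 2 and 3 (1.57 and 1.06), and the log2 fold change of 0.33 without the block (95% interval -1.05 to 1.72) became 0.19 (-0.15 to 0.54) with it.

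The ventral factors were low in both systems. Nkx2-1 (ENSMUSG00000001496, chr12:56531958-56536908, minus strand) held 1.42, 2.09 and 1.31 CPM in control cortex and 1.46, 2.27 and 1.02 CPM in cKO (log2 fold change -0.04, SE 0.370, edgeR adjusted p = 0.980). In NPC it held 0.779, 0.805 and 0.540 CPM in controls and 0.307, 0.784 and 0.400 CPM in knockdown, lower in each of the 3 pairs, with 8 to 24 counts a library. Its blocked log2 fold change of -0.54 had a 95% interval of -1.37 to 0.29. Gsx2 (ENSMUSG00000035946, chr5:75075601-75077893, plus strand) held 0.876, 1.60 and 0.626 CPM in control cortex and 0.275, 0.766 and 0.936 CPM in cKO (log2 fold change -0.66, SE 0.529, edgeR adjusted p = 0.692). In NPC, Gsx2 had 2 to 19 counts a library and did not pass the count filter, and a difference was not detectable at this depth.

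Counted together, 0 of the 9 factors passed in cortex in edgeR, where 0.171% of 15781 genes tested were called. At an unadjusted p under 0.05 there was 1 of 9, beside 10.9% of all genes, and DESeq2 called 1 of 9, beside 2.14%. With the replicate number as a block edgeR called 0 of 9 in cortex (0.00634% of genes). The median log2 fold change of the 9 was -0.09, against 0.00337 over all genes. In NPC, 7 of the 9 passed the count filter. Otx1, Otx2 and Nr2f1 were higher in all 3 pairs, as were 28.4% of all genes, and Nkx2-1 was lower in all 3 pairs, as were 25.5%. Because the NPC pairs are part of how the genes were chosen, nothing is read from these counts. Otx1 was the only tested factor without overlap between NPC groups (23.5% of all genes in either direction, 11.3% higher).

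**Figure D3:**
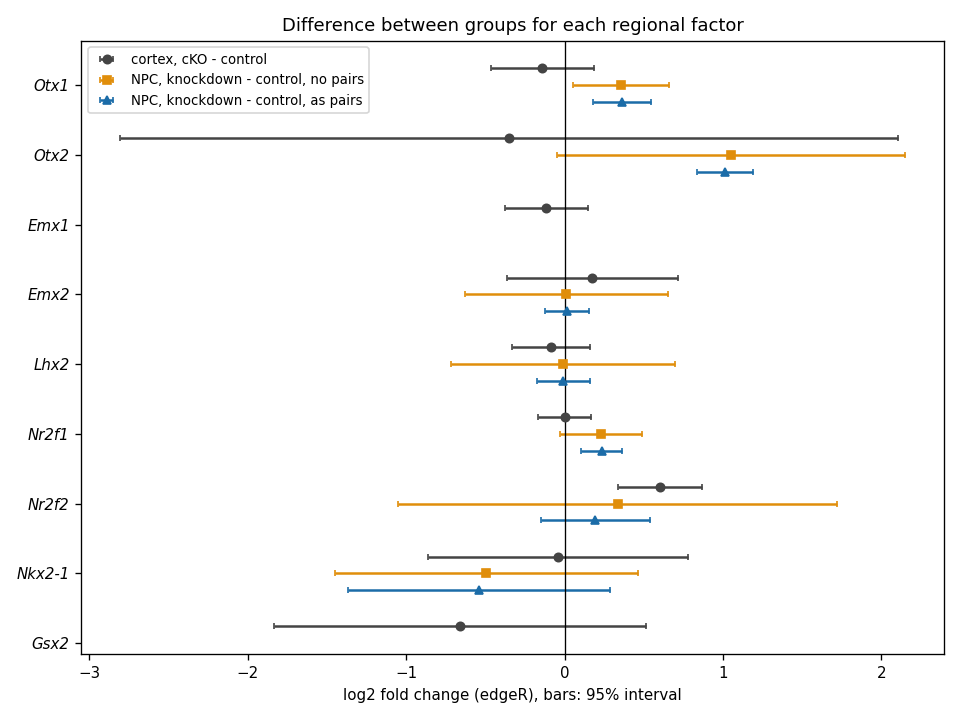
Log2 fold change of each factor (horizontal axis) with its 95% interval in the cortex comparison and in the NPC comparison without and with the pairing. Emx1 and Gsx2 have no NPC value. The Otx2 interval shrinks from -0.05 to 2.15 without pairing to 0.84 to 1.19 with it, and the Nr2f2 interval in cortex is 0.34 to 0.87.

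Replicate 2 of the NPC stood apart in several regional factors, in both groups. Among the factors at 1 CPM or more, Otx2 and Nr2f2 were higher in both replicate 2 libraries than in each of the other 4, and Emx2 was lower. The means of these libraries were 36.9 against 14.8 CPM for Otx2, 16.5 against 5.92 CPM for Nr2f2 and 22.6 against 38.4 CPM for Emx2. Nkx2-1, under 1 CPM in NPC, was higher in both by a small margin (0.784 and 0.805 CPM against at most 0.779 CPM). Of 12 listed diencephalic, midbrain and hindbrain genes at 1 CPM or more, 8 were higher in both replicate 2 libraries, 5 of them by at least 2-fold between the lower of these and the highest of the others. In the other lists 1 of 21 dorsal genes was higher and 4 were lower. Of 18 ventral genes 2 were higher and 2 lower, and of 7 signalling centre genes 0 were either. The share of all genes by this measure was not counted. En1, which marks the midbrain and hindbrain border, held 1.98, 11.3 and 3.34 CPM in controls and 1.30, 10.1 and 2.69 CPM in knockdown. Irx5, of the Iroquois family, held 0.885, 7.40 and 2.40 CPM in controls and 1.15, 6.40 and 1.85 CPM in knockdown.

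Genes of other cell types were higher in this replicate too. The collagen gene Col3a1 stood at 21.7 and 24.8 CPM in the replicate 2 libraries and at 0.177 to 1.24 CPM in the other 4, and the 11 meningeal genes summed to 50.6 and 51.9 CPM against 17.3 to 20.6. Their part in the Otx2, Nr2f2 and Emx2 levels was not tested. A further count covered all 14258 genes that passed the count filter, with 0.1 added to each CPM. Both libraries of a pair lay at least 2-fold above the other 4 for 18 genes in pair 1, 40 in pair 2 and 0 in pair 3. They lay at least 2-fold below them for 10, 4 and 7 genes.

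**Figure D4:**
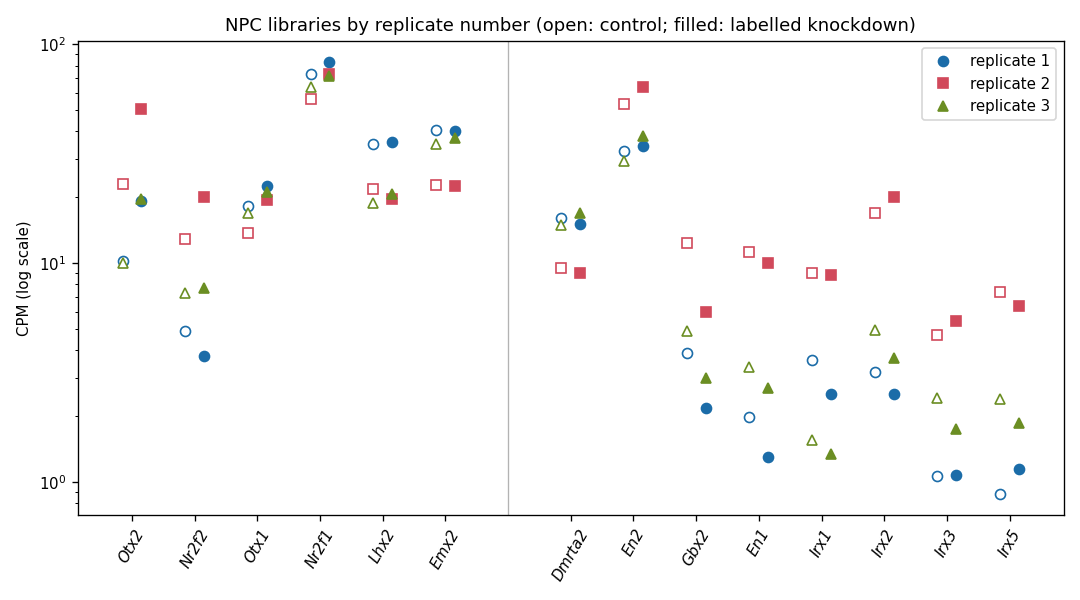
CPM (log scale) of 6 factors and 8 further regional genes in the 6 NPC libraries, with colour and shape for the replicate number, open symbols for controls and filled ones for knockdown. Replicate 2 is highest in both groups for Otx2 and Nr2f2 and for En1 (11.3 and 10.1 CPM), and lowest for Emx2 (22.7 and 22.5 CPM).

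Other regional genes of lists made for this comparison were counted beside the 9. In cortex 0 genes of the dorsal (28 tested), ventral (22), diencephalic to hindbrain (7) and signalling centre (18) lists were called by edgeR, beside 0.171% of all genes. At an unadjusted p under 0.05 there were 6, 10, 1 and 5, beside 10.9% of all genes. DESeq2 called 1 higher and 1 lower in the dorsal list, 4 lower in the ventral list, 1 higher in the diencephalic to hindbrain list and 0 in the signalling centre list, beside 2.14% of all genes. The median log2 fold change of the ventral list was -0.23, against 0.00337 over all genes. Dlx1 and Lhx6, factors of interneuron precursors, had the smallest p of that list. Lhx6 held 89.2, 83.2 and 95.9 CPM in controls and 69.2, 63.7 and 71.6 CPM in cKO (log2 fold change -0.41, edgeR adjusted p = 0.0889), and Dlx1 124, 124 and 104 CPM against 93.0, 81.4 and 87.9 CPM (-0.45, edgeR adjusted p = 0.0889). Sp8 (-0.55) and Lmo3 (0.24) came first in the dorsal list, Barhl2 (1.84) and Lhx9 (0.49) in the diencephalic to hindbrain list, and Dkk3 (-0.32) and Bmp6 (0.60) among the signalling centre genes.

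In NPC, 1 gene of these lists passed in edgeR without the pairing, beside 1.89% of all genes, and more passed with it. The former was Bmp7, a bone morphogenetic protein of the dorsal midline, which fell from 92.6, 96.8 and 95.02 CPM to 39.1, 37.2 and 34.2 CPM (log2 fold change -1.37, SE 0.0700, edgeR adjusted p = 0.000893). With the block, 4 of 23 dorsal genes rose and 2 fell, 3 of 18 ventral genes rose and 3 fell, 1 of 11 diencephalic to hindbrain genes rose and 3 fell, and 1 of 11 signalling centre genes rose and 2 fell, beside rises in 11.9% and falls in 12.8% of all genes (24.7% in either direction). DESeq2 called 7.1% of all genes in NPC without the block and 17.1% with it. The medians were 0.07, 0.07, -0.15 and -0.04, against 0.00335 over all genes. In the dorsal list, rises included Zbtb20 (0.50, adjusted p = 0.00147), Lmo3 (0.32) and Gli3 (0.21), and Lmo4 (-0.62) and Sox21 (-0.33) fell, in edgeR with the replicate block. In the ventral list Zic1 (0.28) was among the rises, and Shh (-0.85), Gsx1 (-0.56) and Nkx2-2 (-0.26) fell. Wnt5a fell (-0.39) and Wnt7b rose (0.25) among the secreted signals.

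Gbx2, which borders Otx2 in the early embryo, was lower in knockdown in each pair, as were 25.5% of all genes. It held 3.89, 12.3 and 4.89 CPM in controls and 2.19, 6.01 and 2.98 CPM in knockdown, ratios of 0.561, 0.487 and 0.609. With the block it fell by 0.89 on the log2 scale (SE 0.145, adjusted p = 0.000622, edgeR), beside falls in 12.8% of all genes. Barhl2 (-1.21) and Six3 (-0.48), genes of diencephalon and anterior forebrain, fell as well, and En2 rose (0.23). Within each pair Gbx2 was lower and Otx2 higher in knockdown, and both were high in replicate 2. Gbx2 was named after its values were seen, and a link between it and Otx2 was not tested.

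**Figure D5:**
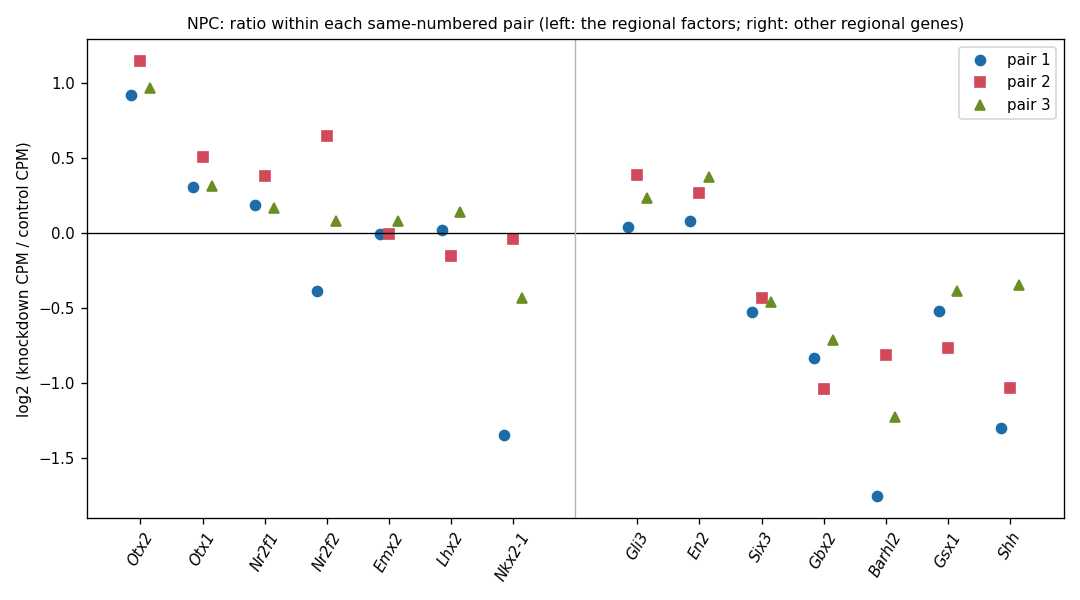
Log2 ratio of knockdown to control CPM (vertical axis) within each same-numbered NPC pair for the 7 tested factors (left) and 7 further regional genes (right), one symbol per pair. The 3 Otx2 points lie between 0.92 and 1.14 and the 3 Gbx2 points between -1.04 and -0.72, while those of Nr2f2 lie on both sides of 0.

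Genes that overlap the factors on the opposite strand were read beside them, because neither the counting program nor its strand setting is stated, and reads of overlapping genes cannot be told apart without strand. Otx2os1, a noncoding RNA that overlaps Otx2 by 5112 bases, held 0.106, 0.307 and 0.135 CPM in control NPC and 0.383, 1.76 and 0.182 CPM in knockdown, with its highest value in the library that was also highest for Otx2. In cortex it had 14 counts in control replicate 2, 4 in cKO replicate 3 and 0 in the other 4. Emx2os overlaps Emx2 by 264 bases and held 7.44, 5.56 and 6.11 CPM in control NPC and 7.40, 5.16 and 6.50 CPM in knockdown, again lowest in replicate 2 of both groups. In cortex it was lowest in control replicate 3 (2.32 CPM), as Emx2 was. A830082K12Rik, across from Nr2f1, was at 12.3 to 14.5 CPM in NPC with a blocked log2 fold change of 0.07 (95% interval -0.13 to 0.27). B130024G19Rik, across from Nr2f2, was at 0.920 and 0.523 CPM in the NPC replicate 2 libraries and at 0.0675 to 0.182 CPM in the others, and in cortex its log2 fold change was 0.33 (SE 0.388, edgeR adjusted p = 0.804). Gm27197, inside Lhx2, stood at 0.844 to 2.15 CPM in cortex, and Gm26973, across from Nkx2-1, had at most 0.0275 CPM in any library. Gm49154, on the same strand as Otx2, and Gm13584, across from Lhx2, also overlap these factors. Both are absent from the deposited counts and could not be read.

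For the other factors whose range over 6 libraries was above 1 on the log2 scale, the nearest patterns were as follows. Emx2 in cortex lay nearest to Ccdc113, Pih1d2 and Neurod1 (0.0732 to 0.0861 against its own spread of 0.401). Gsx2 in cortex lay nearest to 6430584L05Rik, Mir99ahg and Nkpd1 (0.0982 to 0.228 against 0.654), and Nkx2-1 in cortex to Flt3l, Krt73 and AV039307 (0.0236 to 0.109 against 0.371). In NPC, Nr2f2 lay nearest to Efna5, Mylk and Cd36 (0.198 to 0.218 against 0.800), and Nkx2-1 to Npnt, Gm8971 and Rgs4 (0.104 to 0.155 against 0.448). Mylk, the myosin light chain kinase of smooth muscle, had its highest levels in the NPC replicate 2 libraries, as Nr2f2 did.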

How the data were processed

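Per the labels, total RNA was sequenced from 12 libraries, and per the submitters' processing notes reads were aligned with HISAT2 to mm10. The authors deposited raw counts per gene, with no counting program, strand setting or annotation stated. The 9 genes and all gene lists were chosen with earlier results of these data known. Counts were tested with edgeR 4.0.16 (R 4.3.3): TMM factors, filterByExpr, the quasi-likelihood test on the 6 libraries of each system, and the interaction on all 12. Benjamini-Hochberg adjustment ran over all genes tested, with calls at an adjusted p under 0.05. Named genes were the 9, the genes of each list called without the block or with the 2 smallest p, neighbours within 5 kb, and nearest patterns. Genes called only with the block, and Gbx2, En1, En2, Irx5, Col3a1, Enpp2, Flt1, Nes and Ttr, were named after their values were seen. Some listed genes are counted but not reported here by name.

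Residuals of same-numbered NPC libraries correlated at 0.60, 0.59 and 0.56, so these numbers pair the libraries. In cortex they were 0.01, -0.20 and -0.04, which do not. Replicates of a group differed by more than counting noise (chi-square per degree of freedom of 7.52 to 42.9), so none is a copy. Alternatives were RLE size factors, no filter, DESeq2 1.42.0, 1 fit of 12 libraries, the replicate block, sex (Ddx3y above 10 CPM) as a covariate, leaving out libraries or the Ttr-rich ones (above 1000 CPM), and, chosen after seeing the data, DESeq2 or RLE with the block. The fits were tested on simulated data. GENCODE M21 held 34065 of the 34102 identifiers and gave positions and exonic lengths. Figures used matplotlib 3.10.9.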

Additional observations from a re-analysis of the deposited data

How the results depend on the processing

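Of the fold changes of the 9 genes under all alternatives, 217 kept direction and side of the threshold, 17 newly passed it and 27 turned direction. None had passed to begin with, so none could lose a call. In cortex, 1 of the 9 was called without the count filter and 1 with DESeq2 (Nr2f2 in both). In NPC, 3 were called with the replicate block (Otx1, Otx2 and Nr2f1), 3 with the block in DESeq2 and 3 with the block and RLE factors. Leaving out 1 pair gave 1 to 4. These NPC calls describe only how the count depends on the fit. They are no test of the 9 genes, because the NPC pairs are part of how the genes were chosen, and nothing is read from them. The same holds for the NPC fits among the 17 that newly passed. Otx2 in cortex turned to 0.76 with the replicate block, to 0.78 with sex and to 1.39 without the Ttr-rich libraries, where Otx1 turned to 0.053 and Nkx2-1 to 0.43. Nr2f1 in cortex turned to 0.00078 without the filter and 0.0040 with the replicate block.

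Leaving out single libraries moved cortex values of Otx2 from -1.85 to 2.89, Lhx2 from -0.19 to 0.037, Nr2f1 from -0.051 to 0.080, Nkx2-1 from -0.39 to 0.20 and Emx2 from -0.11 to 0.42. In NPC without the block it moved Emx2 from -0.20 to 0.23, Lhx2 from -0.33 to 0.31 and Nr2f2 from -0.54 to 0.77. With the replicate block, Lhx2 turned to 0.065 and Nr2f2 to -0.14 without pair 2, and Emx2 to -0.017 without pair 3. Where these turned, the cause was not tested beyond the fewer libraries.

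Over all genes, edgeR called 27 in cortex, against 156 without the filter, 338 in DESeq2, 1 with the replicate block, 49 in 1 fit of 12, 12 with sex and 0 to 28 without 1 library. In NPC it called 270, against 1012 in DESeq2, 3522 with the replicate block, 2437 with it in DESeq2, 3489 with it and RLE factors, 654 in 1 fit of 12, 47 to 304 without 1 library and 1636 to 4376 without 1 pair. For the difference between the systems, which is not read for the 9 genes because it uses the NPC values, it called 242, against 783 in DESeq2 and 604 with the replicate block. Depth limits Gsx2 and Nkx2-1, with 2 to 77 counts a library.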
